A study of Mus musculus with 35 samples.

Results

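A set of 7 genes of the endoplasmic reticulum (ER) were followed across the passages of mouse ovarian surface epithelium cells in culture (MOSE cells). They are the lumenal chaperones Hspa5 (BiP, GRP78) and Hsp90b1 (GRP94), the co-chaperone Dnajc3 (p58IPK), the disulfide isomerases Pdia3 (ERp57) and Pdia4 (ERp72), the membrane lectin chaperone Canx (calnexin) and the calcium release channel Itpr1. Members were taken by symbol, with older synonyms such as Tra1 for Hsp90b1 and Grp58 for Pdia3 counted, and every array clone with such a symbol was kept whatever its values. This gave 7 genes of the 7389 on the array and 14 clones of 15254. Hspa5, Canx and Dnajc3 had 3 clones each, Hsp90b1 had 2, and Pdia3, Pdia4 and Itpr1 had 1 each.

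Proteins that enter the ER fold there with the help of chaperones that hold unfolded chains, lectins that retain sugar-bearing chains and isomerases that form and rearrange disulfide bonds. Most of these proteins also bind calcium or need it, and the inositol trisphosphate receptors, of which Itpr1 is one, let the calcium of the ER out into the cytosol. When unfolded chains build up, the sensors Ern1, Eif2ak3 and Atf6 raise the transcription of chaperone genes, in part through a promoter element known as the ER stress response element.

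MOSE cells came from adult virgin C57BL/6 females and were passaged serially, from passage 2 (p2) to passage 28 (p28), with no treatment or gene alteration named in the labels. A single RNA preparation was made at each of 9 passages (early p2, p5, p7 and p10, and late p14, p18, p23, p25 and p28), and it was hybridized on 4 dual-color cDNA arrays (3 at p7) against RNA of a whole newborn male C57BL/6 mouse. In direct arrays (d1, d2) MOSE RNA was in Cy5, and in reverse arrays (r1, r2; only r1 at p7) it was in Cy3. Arrays of a passage are therefore technical replicates of 1 RNA, and the passages are successive samples of a culture with no parallel cultures. The p-values below cover the spread between hybridizations only, except those of the slope and the late-to-early difference. Those cover the spread between passage means.

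The upstream sequences of the members were searched for the ER stress response element, apart from their levels. RefSeq promoters (GRCm38.p6, 250 bases before the start) were listed for 6 of the 7 genes. A set of 4 are printed 5′ to 3′ on the strand of the gene. Capitals mark exact matches to the ER stress response element, searched on both strands as CCAAT followed after 9 bases of any kind by CCACG. In Pdia3, which has no exact match, they mark the short motif CCAAT. Hspa5 (chr2:34771840-34772089, plus strand) and Hsp90b1 (chr10:86705445-86705694, minus strand) are the main lumenal chaperones. Pdia3 (chr2:121413652-121413901, plus strand) and Canx (chr11:50325674-50325923, minus strand) are shown as a gene without an exact match and a gene with one. They were picked with their levels known, and no clone of either passed in the single comparisons with p2.
Hspa5: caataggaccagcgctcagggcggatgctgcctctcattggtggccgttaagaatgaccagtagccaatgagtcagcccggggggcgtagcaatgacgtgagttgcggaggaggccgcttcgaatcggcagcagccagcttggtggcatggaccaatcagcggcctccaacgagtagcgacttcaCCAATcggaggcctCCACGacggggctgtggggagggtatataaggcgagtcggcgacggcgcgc
Hsp90b1: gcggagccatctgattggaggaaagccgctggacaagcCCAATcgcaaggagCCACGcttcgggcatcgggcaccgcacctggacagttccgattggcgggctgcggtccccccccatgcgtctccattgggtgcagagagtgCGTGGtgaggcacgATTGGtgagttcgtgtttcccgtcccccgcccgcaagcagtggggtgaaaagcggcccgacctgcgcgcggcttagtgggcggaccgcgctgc
Pdia3: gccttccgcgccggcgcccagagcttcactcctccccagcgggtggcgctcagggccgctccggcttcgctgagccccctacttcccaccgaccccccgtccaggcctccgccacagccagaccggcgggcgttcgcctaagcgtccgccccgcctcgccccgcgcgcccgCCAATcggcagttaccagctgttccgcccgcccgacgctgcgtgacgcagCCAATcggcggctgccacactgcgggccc
Canx: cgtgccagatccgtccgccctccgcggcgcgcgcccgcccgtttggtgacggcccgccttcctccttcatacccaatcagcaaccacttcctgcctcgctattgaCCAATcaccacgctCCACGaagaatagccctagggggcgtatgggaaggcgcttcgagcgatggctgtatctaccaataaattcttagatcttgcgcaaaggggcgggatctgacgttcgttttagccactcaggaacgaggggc

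The whole element was found at 65 to 47 bases before the start in Hspa5, at 145 to 127 in Canx and at 105 to 87 in Dnajc3. In Hsp90b1 it occurred at 212 to 194 and, on the opposite strand, at 107 to 89. It was found in neither Pdia3 nor Pdia4, which hold CCAAT without the spaced CCACG. Over all 32851 promoters of this length the element was present in 37 (0.113%), while its ends alone were common, with CCAAT in 33.8% and CCACG in 28.3%. The related motifs, ATTGG followed after 1 base by CCACG (0.0304% of promoters) and TGACGTGG (0.563%), were found in none of the 6. The ends lie inside the long element, so these counts overlap, and a match is a description of letters, not a binding site or a cause of any level reported here.

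Over all clones, 98.8% to 99.6% of spots per array lay above local background in both channels, and the median MOSE signal per array ran from 872 to 7419. Of the 14 member clones, 12 were above background on all 35 arrays and none was saturated on any. Canx H3081D12 was above background on only 18 of 35 arrays, with log2 ratios from -4.87 to 8.46. Hspa5 H3144C11 was marked by the scanner program on all 4 p5 arrays, and its reference spot on p5 r2 did not rise above background. The direct and reverse p2 arrays differed more for these genes than for others. On 10 of 14 member clones both reverse arrays read above both direct arrays at p2, against 26% of all clones, and the median SD over the p2 arrays was 0.46 for members and 0.21 for all clones. At p7 the offset ran the other way, with the reverse array below both direct arrays on 12 of 14 member clones against 39.7% of all clones. The median of reverse minus direct over the members was 0.76 at p2 and -0.45 at p7, beside -0.01 and 0.00 for all clones. The part of these offsets in the differences from p2 was not tested.

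At p14 every clone of 6 of the 7 genes read below p2, and the Canx clones above background lay near it. At p14, 3 of 14 member clones passed the test as lower than at p2 (0.623% of all clones did) and none passed as higher. These were Hspa5 H3003F12 (log2 difference -2.09, SE 0.22, a fold of 0.234), Itpr1 (-2.03, SE 0.27, 0.245) and Dnajc3 J0440G11 (-1.28, SE 0.19, 0.413). At p28 Itpr1 was at its lowest (-2.34, SE 0.30, a fold of 0.197 of p2) while the Hspa5 clones lay nearer to p2. The study singled out all these genes but Canx on these same arrays, so their direction at p14 is not independent evidence.

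Hspa5 encodes the Hsp70 chaperone of the ER lumen, which also holds the stress sensors inactive. On clone H3003F12 the log2 ratio of MOSE to reference was 2.46, 2.20, 3.01 and 2.89 on p2 arrays d1, d2, r1 and r2. It was 1.93, 1.74, 1.56 and 0.77 at p5, and 1.53, 1.02 and 0.40 at p7. Thus each p5 and p7 array already lay below each p2 array. At p10 the values were 0.49, 1.24, 0.33 and 0.61, at p14 they were 0.59, 0.94, 0.18 and 0.47, and at p18 they were 0.64, 0.31, -0.45 and 0.05. The p18 mean of 0.14 was the lowest of the series, so that MOSE cells stood near the newborn reference, whereas at p2 the gene read 6.23 times the reference. The values then were 0.64, 1.22, 0.76 and 0.63 at p23, 0.86, 1.30, 0.63 and 0.62 at p25, and 1.70, 1.56, 0.92 and 1.09 at p28. No later array reached the lowest p2 array.

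The difference from p2 on this clone was -1.14 (SE 0.28) at p5 and -1.65 (SE 0.32) at p7, neither of which passed (adjusted p 0.0714 and 0.0726). It passed at p10 (-1.97, SE 0.24, adjusted p 0.00942), p14 (adjusted p 0.00229) and p18 (-2.50, SE 0.27, a fold of 0.177, adjusted p 0.00685). It also passed at p23 (-1.83, SE 0.22, adjusted p 0.00359), p25 (-1.78, SE 0.22, adjusted p 0.00534) and p28 (-1.32, SE 0.24, adjusted p 0.00975). When each array was left out in turn, the p10 and p18 calls were lost in all 8 fits, and the call passed in 5 of 8 fits at p14, 3 at p23, 2 at p25 and 1 at p28. The difference stayed between -2.16 and -1.85 at p10 and between -2.67 and -2.30 at p18 in these fits. Calls over all clones fell at p10 and p18 in these fits too, with the counts given below. With a dye term the p10 call was lost as well. Fewer cells of a kind and less RNA per cell cannot be told apart in these bulk samples, here and for every gene below.

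The second Hspa5 clone, H3032A08, read 1.62, 1.78, 2.54 and 2.53 at p2, 0.63, 0.86, 0.57 and 0.67 at p14, and 0.06, 0.26, -0.07 and 0.12 at p18. The groups at p14 and p18 lay wholly below p2. The p18 difference passed (-2.03, SE 0.23, adjusted p 0.00855) but in none of the 8 fits with an array left out, and the p14 difference of -1.44 (SE 0.23) came with an adjusted p of 0.0108. At p28 this clone read 1.62, 1.55, 1.32 and 1.27, and d1 reached the lowest p2 array, with a difference of -0.68 (SE 0.23, adjusted p 0.107). The third clone, H3144C11, read 1.02, 0.91, 2.01 and 1.75 at p2, and 0.22, 3.26, 0.79 and 13.45 on the marked p5 arrays, which allow no reading. It read -0.54, -0.68, 0.46 and 0.36 at p18, below every p2 array, where its difference of -1.52 (SE 0.35) did not pass (adjusted p 0.0731). With the clones of a gene averaged, Hspa5 passed at p14 (-1.56, SE 0.22, adjusted p 0.00532) and at p18 (-2.02, SE 0.22, adjusted p 0.00538).

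Hsp90b1 encodes the Hsp90 chaperone of the ER lumen, a major calcium binder there. Clone H3026G06 read 1.56, 1.22, 2.16 and 2.27 at p2, 0.49, 0.24, 0.47 and 0.47 at p14, and 0.35, -0.21, -0.17 and -0.14 at p18. Every p14 and p18 array lay below every p2 array. The differences were -1.38 (SE 0.23, adjusted p 0.0137) at p14 and -1.84 (SE 0.26, adjusted p 0.0138) at p18, short of the threshold of 0.01. At p28 the arrays read 0.81, 1.03, 0.84 and 0.71, still below p2, with a difference of -0.96 (SE 0.23, adjusted p 0.034). Clone H3026G05 had the same lowest and highest passages, with 0.97, 0.71, 1.63 and 1.77 at p2, 0.39, 0.16, 0.21 and 0.29 at p14, and -0.11, 0.06, -0.14 and -0.32 at p18. Its differences were -1.01 (SE 0.23, adjusted p 0.045) at p14 and -1.40 (SE 0.24, adjusted p 0.0287) at p18. No Hsp90b1 clone passed at any passage.

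Dnajc3 encodes a J-domain co-chaperone of the Hspa5 protein. Clone J0440G11 read 1.11, 1.28, 1.80 and 1.91 at p2, 0.25, 0.33, 0.23 and 0.20 at p14, -0.43, -0.02, 0.17 and 0.19 at p18, and 0.61, 0.57, 0.27 and 0.44 at p28. All arrays from p7 onwards lay below the p2 arrays. Its difference passed at p14 (adjusted p 0.00769), and those at p25 (-1.24, SE 0.20, adjusted p 0.0112) and p28 (-1.05, SE 0.20, adjusted p 0.0117) came close to the threshold. Clone H3094A04 read 0.95, 1.03, 1.88 and 1.69 at p2 and 0.41, 0.10, 1.14 and 0.36 at p14, where r1 overlapped p2 (-0.88, SE 0.28, adjusted p 0.124). Clone H3142G03 was marked on 3 of 35 arrays, and read 0.13, 0.40, 0.94 and 0.66 at p2 and -0.57, -0.42, -0.08 and -0.24 at p14. Its p14 arrays lay below p2 (-0.86, SE 0.19, adjusted p 0.0397), while at p23 it differed by 0.04 (SE 0.38).

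Pdia4, an isomerase with several thioredoxin-like active sites, differed from p2 early. It read 0.39, 0.39, 0.61 and 0.19 at p2, -0.15, -0.32, -0.35 and -0.56 at p5, and -0.74, -0.71 and -0.96 at p7. Each later passage lay wholly below p2, and p7 and p18 were its lowest passages. At p14 the arrays read -0.14, -0.18, -0.24 and -0.80, at p18 they read -0.36, -0.70, -1.21 and -0.93, and at p28 they read 0.12, 0.00, -0.26 and -0.25. The differences ran from -0.49 (SE 0.15, adjusted p 0.0693) at p28 to -1.21 (SE 0.13, adjusted p 0.0229) at p7, and none passed.

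Pdia3, the isomerase that works with the lectin chaperones on glycoproteins, differed from p2 later in the series. It read 1.14, 1.18, 2.07 and 1.70 at p2 and 1.03, 0.70, 1.26 and 1.04 at p10, and these overlapped (-0.52, SE 0.22, adjusted p 0.263). At p14 it read -0.28, 0.20, 0.03 and 0.44, and at p28 0.28, 0.27, 0.39 and 0.54, all below every p2 array. The differences from p2 were -1.42 (SE 0.24, adjusted p 0.014) at p14, -1.53 (SE 0.29, adjusted p 0.0182) at p23 and -1.15 (SE 0.21, adjusted p 0.0111) at p28, so that none passed in single comparisons with p2. With 1 value per gene in place of 1 per clone, the p28 difference passed (adjusted p 0.0093).

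Itpr1, the inositol trisphosphate receptor that releases calcium from the ER, was measured by clone H3062H07. It read 2.05, 1.87, 2.99 and 2.96 at p2, 1.59, 1.57, 1.84 and 1.58 at p5, and 2.05, 1.83 and 1.41 at p7. The p7 arrays overlapped those of p2. At p10 it read 1.52, 1.53, 1.05 and 1.22, at p14 0.61, 0.43, 0.19 and 0.53, and at p18 0.62, 1.04, 1.85 and 0.96. From p10 on, every array lay below the lowest p2 array, and p18 was the most spread. At p23 the values were 0.74, 0.75, 0.70 and 0.40, at p25 0.36, 1.06, 1.20 and 0.41, and at p28 -0.45, 0.29, 0.38 and 0.29. The p28 mean of 0.12 was the lowest of the series, against 2.47 at p2, where the gene read 5.52 times the reference. The difference passed at p14 (adjusted p 0.00522), p23 (-1.82, SE 0.27, adjusted p 0.0076; 1 of 8 fits with an array left out) and p28 (adjusted p 0.00243). It did not pass at p18 (-1.35, SE 0.34, adjusted p 0.1) or p25 (-1.71, SE 0.31, adjusted p 0.0186).

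Canx, the lectin chaperone that retains glycoproteins in the ER membrane, showed no difference from p2 past the test at any passage. Clone H3012C02 read 0.82, 0.83, 0.76 and 0.35 at p2, 0.90, 0.96, 0.11 and 0.49 at p14, and 1.54, 1.47, 0.67 and 0.25 at p28. Clone H3014D05 read 0.39, 0.59, 0.09 and 0.08 at p2, 0.46, 0.32, 0.34 and 0.09 at p14, and 1.10, 0.83, 0.52 and 0.46 at p28. Both overlapped p2 at both passages. The differences at p14 were -0.07 (SE 0.21) and 0.01 (SE 0.15), and those at p28 were 0.29 (SE 0.29) and 0.44 (SE 0.19, adjusted p 0.192). H3012C02 lay wholly below p2 at p18 alone (-0.66, SE 0.17, adjusted p 0.101). The third clone, near background, gave differences with SEs of 1.75 or more and no reading.

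**Figure D1:**
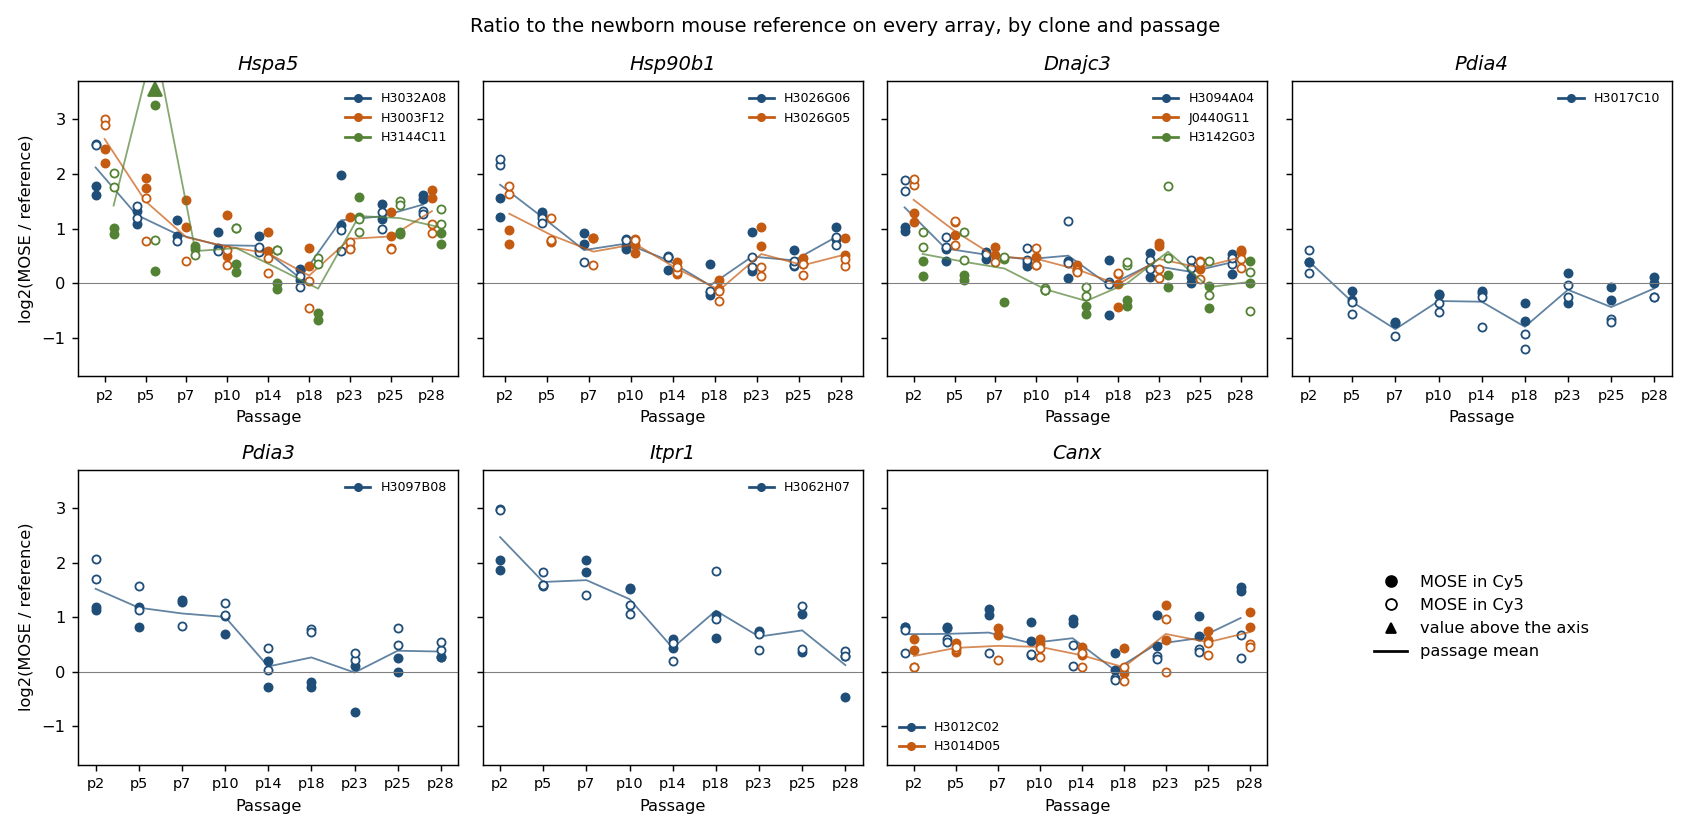
The log2 ratio of MOSE to newborn reference (vertical axis) on each array is plotted by passage for 13 clones of the 7 genes, with filled points for MOSE in Cy5, open points for MOSE in Cy3 and lines through passage means. The p2 mean is the highest of the series on every drawn clone but Hspa5 H3144C11 (p5), Dnajc3 H3142G03 (p23) and the Canx pair (p28), and the near-background Canx clone is not drawn.

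Counted over the set, lower values spread over the series while few clones passed at any one passage. All 8 comparisons use the same p2 arrays, so they are not independent of one another. No member clone passed at p5 or p7, where 0.177% and 0.0131% of all clones passed as lower, although 7 of 14 member clones were lower at an unadjusted p under 0.05 at each of these passages, 2755 and 2917 of all clones being past that level in either direction. A single clone passed as lower at p10 (0.184% of all clones) and at p25 (0.479%), and 2 clones passed at p18 (0.151%) and p23 (0.918%) as well as p28 (1.48%). With any 1 array of the fit left out, no member clone passed at p10 or p18. Calls over all clones, in either direction, also fell in these fits. At p10 they went from 40 to between 3 and 25, and at p18 from 34 to between 0 and 11. A dye term in every comparison moved the counts at p10, p14 and p18 from 1, 3 and 2 to 0, 8 and 7. The shares of all clones as lower were then 0.361%, 1.68% and 1.19%. Counts at p23, p25 and p28 moved from 2, 1 and 2 to 3, 6 and 5, with shares of 1.42%, 1.15% and 2.94%. No member clone passed as higher in any of the 8, where from p5 to p14 the share of all clones that did was 0.138%, 0.0131%, 0.0787% and 0.721%, and from p18 to p28 it was 0.0721%, 0.42%, 0.538% and 1.5%.

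Clones on which every array lay below every p2 array numbered 5 of 14 at p5 (6.12% of all clones), 7 at p7 (6.94%) and 8 at p10 (6.27%). The count was 10 at p14 (7.03%) and 11 at p18 (5.32%), the most of the series. It was 7 at p23 (8.12%) and 9 at p25 (6.61%), with 8 at p28 (8% of all clones). The median difference from p2 over the 14 clones ran through -0.58, -0.68, -0.86 and -1.21 from p5 to p14 and through -1.41, -1.01, -1.04 and -0.85 from p18 to p28, whereas the median over all clones stayed between -0.02 and 0.01 throughout. At p18 all 14 clones had a negative difference, and all Hspa5 and Hsp90b1 clones, both Canx clones above background and 2 Dnajc3 clones had their lowest mean there.

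**Figure D2:**
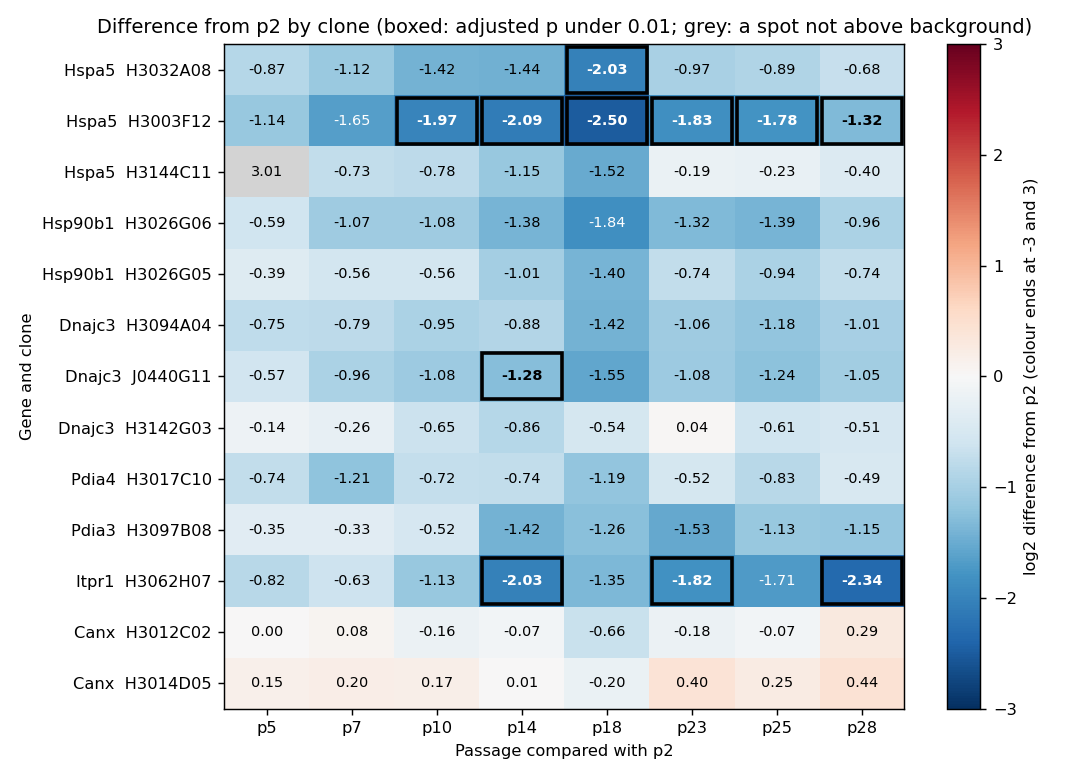
Each cell gives the log2 difference of a passage from p2 for a clone, blue for lower and red for higher, with boxes around differences past an adjusted p of 0.01 and grey for a p5 value that rests on a spot not above background. Hspa5 H3003F12 is boxed from p10 to p28 and Itpr1 at p14, p23 and p28, while the Canx rows stay between -0.66 and 0.44.

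A ratio to a reference can move through either channel, so each channel was also taken alone after between-array normalization. At p14 the MOSE signal of Itpr1 changed by -1.51 on the log2 scale from p2, and the reference signal by -0.09. The changes were -1.03 and -0.10 for Hsp90b1 H3026G06, -1.06 and -0.16 for Dnajc3 J0440G11, and -0.94 and -0.05 for Hspa5 H3032A08. In these clones the MOSE change was larger than that of the reference, and smaller than the difference of the ratios, which were normalized separately. By the MOSE channel alone no member clone passed at p14 (0.111% of all clones did as lower), and Itpr1 at p28 was the only member clone to pass as lower at any passage. For Hspa5 H3003F12 the MOSE signal changed by -1.11 and the reference by 0.35, and for Pdia3 by -0.61 and 0.48, so that both channels moved. At p28 the MOSE signal of Itpr1 changed by -1.81 and the reference by -0.05, and that of Pdia3 by -0.68, which did not pass, and 0.05. Hspa5 H3032A08 changed by 0.06 in the MOSE channel and 0.03 in the reference, and H3144C11 by 0.13 and 0.02, while H3003F12 changed by -0.56 and -0.01. Both Canx clones read brighter in both channels at p14 (0.75 and 0.62 for H3012C02).

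**Figure D3:**
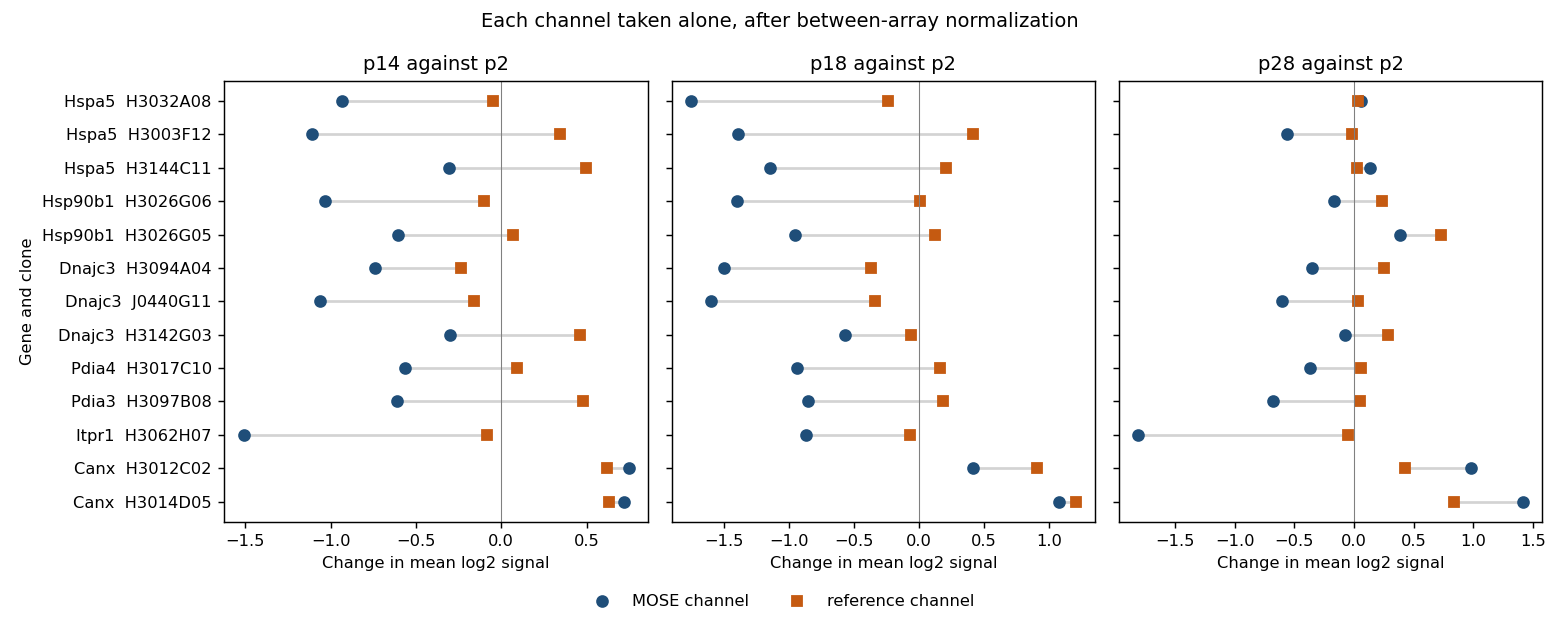
The change in mean log2 signal from p2 (horizontal axis) is shown for the MOSE channel (circles) and the reference channel (squares) of 13 clones at p14, p18 and p28. At p14 Itpr1 lies at -1.51 in the MOSE channel and -0.09 in the reference, and at p28 the Hspa5 clones lie between -0.56 and 0.13 in the MOSE channel.

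Taking 1 value per passage as the replicate asks whether a level followed the passage number over all 9 passages. Tests of this kind treat the passages as independent, which successive samples of a culture are not. A slope below 0 passed an adjusted p of 0.05 on 3 of 14 clones (1.34% of all clones). The slope was -0.0684 log2 units per passage for Itpr1 (SE 0.012, adjusted p 0.0279) and -0.0483 for Pdia3 (SE 0.011, adjusted p 0.0464). The third was Canx H3081D12, above background on only 18 of 35 arrays. With each passage left out in turn, the slope of Pdia3 passed in 1 of 9 fits (without p14) and that of Itpr1 in 3 of 9, and no member clone passed without p2 or p28. The p14 to p28 means lay below those of p2 to p10 by the test for 3 clones as well (2.4% of all clones), with differences of -0.97 for Pdia3 (SE 0.13, adjusted p 0.00707), -1.16 for Itpr1 (SE 0.24, adjusted p 0.0309) and the same Canx clone. Without p7 only 1 clone passed, and Pdia3 passed whichever passage was left out, whereas Itpr1 passed in 4 of 9 such fits. The split was set at p14 because the study centers on that passage. The study had listed Pdia3 and Itpr1 as lower there on these same arrays, so the late-to-early results are not independent evidence. For Hspa5 H3003F12 the late-to-early difference was -0.68 (SE 0.38, adjusted p 0.364), and for Pdia4 it was -0.08 (SE 0.23, adjusted p 0.89).

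Neighboring passages were compared to see where in the series the levels moved. No member clone passed in any step. Of all clones, 0.0328% passed in either direction from p5 to p7, 0.0721% from p7 to p10, 1.65% from p10 to p14, 0.0131% from p14 to p18, 0% in each of the next 2 steps and 0.144% from p25 to p28. From p10 to p14 the largest differences among the member clones above background on all arrays were those of Pdia3 (-0.91, SE 0.18, adjusted p 0.0252) and Itpr1 (-0.89, SE 0.16, adjusted p 0.0125). Over the same step Hspa5 H3003F12 differed by -0.12 (SE 0.23). Between p14 and p18 the unadjusted p was under 0.05 with a negative difference for 4 clones (1647 of all clones were past that level in either direction). Itpr1 went the other way over this step (0.68, SE 0.25, unadjusted p 0.0238, adjusted p 0.359 by limma). Its lowest p18 array read 0.62 and its highest p14 array 0.61. Between p18 and p23 it was under 0.05 with a positive difference for 7 clones, and 890 of all clones were past it in either direction. The differences at p23 over p18 were 1.06 (SE 0.28), 0.67 (SE 0.25) and 1.33 (SE 0.29) for the Hspa5 clones, each with an adjusted p of 0.828.

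The last passage was also set against p14, a comparison that uses no p2 array. No clone of the array passed (0%), members included. The 3 Hspa5 clones differed by 0.76 (SE 0.15), 0.77 (SE 0.22) and 0.74 (SE 0.22), with unadjusted p-values of 0.000424, 0.00594 and 0.00637 and adjusted p-values of 0.156, 0.345 and 0.353 by limma. All 5 member clones at an unadjusted p under 0.05 were higher at p28, against 1423 of all clones in either direction. Itpr1 differed by -0.32 (SE 0.21, adjusted p 0.667) and Pdia3 by 0.27 (SE 0.18, adjusted p 0.666).

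Array names fall into 5 series that partly follow passage, and p5 and p28 each fill a series of their own, so that passage and series cannot be told apart there. Within the series that holds p7, p14 and p23, Itpr1 passed as lower at p14 than at p7 (-1.28, SE 0.15, adjusted p 0.00864), as 0.557% of all clones did. Pdia3 differed by -1.04 (SE 0.22, adjusted p 0.0388) and Hspa5 H3003F12 by -0.34 (SE 0.19, adjusted p 0.345), while Pdia4 differed by 0.52 (SE 0.16, adjusted p 0.104). At p23 and p25 no member clone passed against p7 (0.452% and 0% of all clones passed as lower), and Itpr1 differed by -1.07 (SE 0.16, adjusted p 0.016) and -0.89 (SE 0.28, adjusted p 0.22). Within the series that holds p2 and 3 p18 arrays, with a dye term, 4 of 14 clones passed as lower at p18 (0.524% of all clones). These were Hspa5 H3032A08 (-2.16, SE 0.20, adjusted p 0.00613) and H3144C11 (-1.48, SE 0.12, adjusted p 0.00569), Pdia3 (-1.24, SE 0.14, adjusted p 0.00992) and Dnajc3 J0440G11 (-1.66, SE 0.11, adjusted p 0.0041). Without the dye term none of them passed, and neither did any other clone of the array (0%). When all 35 arrays were fitted together and array series was the block, no member clone passed at p14 (0.341% of all clones as lower), where Hspa5 H3003F12 differed by -2.64 (SE 0.71, adjusted p 0.0667), Itpr1 by -2.39 (SE 0.64, adjusted p 0.0667) and Pdia3 by -0.27 (SE 0.62, adjusted p 0.913). At p18 in that fit 8 clones passed as lower (1.51% of all clones).

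The size of the p14 difference was recomputed under other processing and fits, and without each array in turn. All 11 clones of the 6 genes other than Canx kept a negative difference in all 22 settings at p14 and likewise at p18. The calls moved more, and without p2 r2, p14 d1 or p14 r2 no member clone passed at p14. Of all clones 48, 58 and 58 passed in either direction in these fits, against 205 with every array. Hspa5 H3003F12 passed at p14 in 10 of 14 alternative settings and 5 of 8 array leave-outs, with differences from -2.64 to -1.11 among the settings. Itpr1 passed at p14 in 10 of 14 settings and 2 of 8 leave-outs, and Dnajc3 J0440G11 in 9 of 14 and 1 of 8. At p28 Itpr1 passed in all 13 settings and all 8 leave-outs, with differences from -2.56 to -1.76 among the settings and a highest adjusted p of 0.0092. These settings leave out the fit with array series as the block, which could not be made at p28 and in which Itpr1 did not pass at p14. The Hspa5 values at p23 and p28 rested on the scaling of arrays. Without scaling H3032A08 differed from p2 by 0.03 at p23 and 0.03 at p28, and H3144C11 by 0.82 at p23, in place of -0.97, -0.68 and -0.19. The median absolute deviation of the ratios before scaling was 0.208 at p2 and 0.417 at p23.

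**Figure D4:**
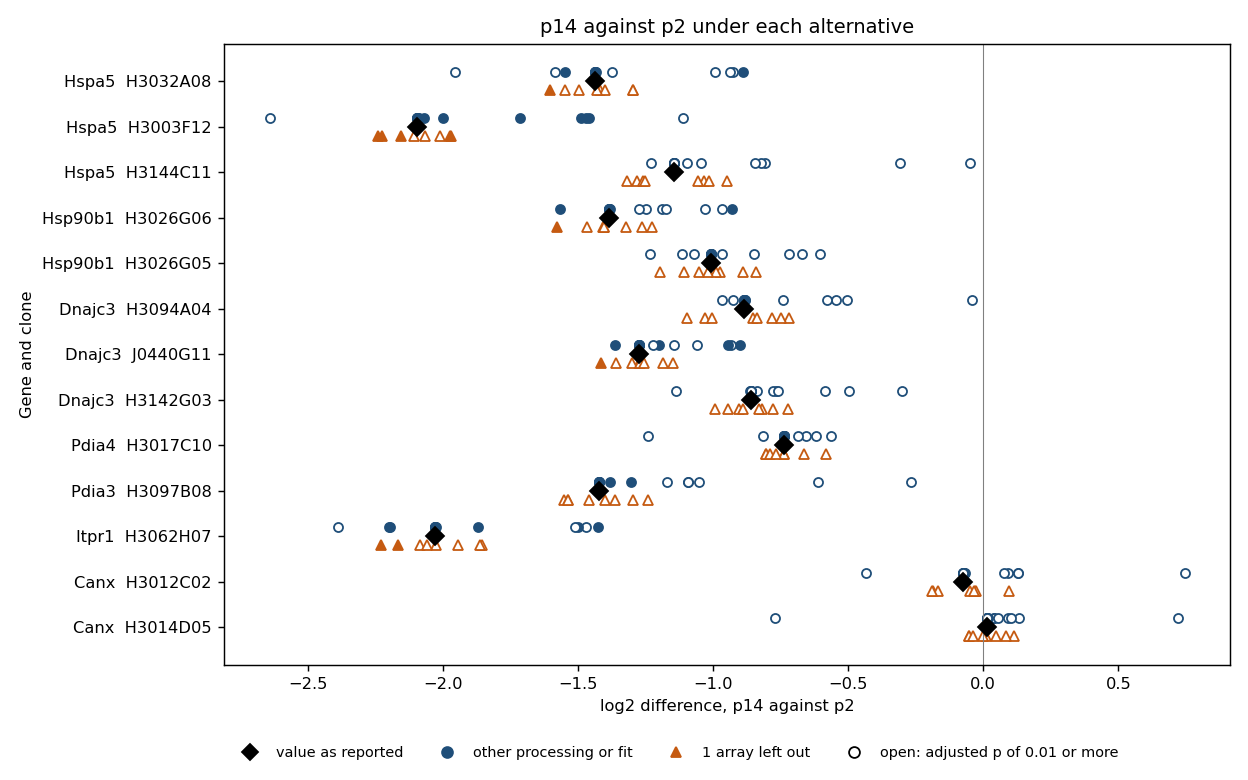
The log2 difference of p14 from p2 (horizontal axis) is shown for 13 clones as reported (diamonds), under other processing or fits (circles) and with 1 array left out (triangles), filled where the adjusted p was under 0.01. The 11 clones other than Canx stay left of 0 throughout, and the Canx pair lies on both sides of it.

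The members differed among themselves in the shape of their profiles. Over the 9 passage means, which share the p2 arrays and the reference and come from successive samples of a culture, Hspa5 H3003F12 correlated with Hsp90b1 H3026G06 (Pearson r = 0.964) and Dnajc3 J0440G11 (r = 0.963), and those with each other (r = 0.981). With Hspa5 H3003F12 and Hsp90b1 H3026G06, Dnajc3 H3094A04 had r = 0.904 and 0.929. Dnajc3 H3142G03 had 0.597 and 0.550, and Hspa5 H3144C11 had 0.494 and 0.563. Pdia3 was most like Itpr1 among clones above background (r = 0.887), both being lower from p14 on, while Itpr1 and Hspa5 H3003F12 had r = 0.579. Pdia4 had r = 0.823 with Hspa5 H3032A08 and 0.797 with H3003F12, beside 0.257 with H3144C11 and 0.259 with Pdia3. Canx H3014D05 ran against Itpr1 (r = -0.451). Among 1689 other genes with an SD over passages of at least 0.3, those most like the mean profile of the 7 genes were Morf4l1-ps1 (r = 0.953), Fth1 (0.934), Ctsh (0.931) and St3gal1 (0.925). Atp9a (0.925), the Hspa5 co-chaperone Dnajb9 (0.921), Gmds (0.920) and Bcam (0.919) followed. These r values describe 9 points, and the mean profile includes the unreliable p5 value of Hspa5 and the dim Canx clone.

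Other genes of ER folding were counted beside the members. On the array were 28 of 42 further folding genes, and at p14 none of them passed against p2 in either direction. Their median difference over genes was 0.06, beside a median of -1.21 over the member clones. All members but Canx had been singled out by the study as lower at p14, so this contrast is not independent evidence. Over the 8 comparisons 4 of the 28 passed at least once, as did 6.43% of all 7389 genes. Manf, a secreted ER stress-induced factor, was lower at p5 (-1.02, SE 0.11, adjusted p 0.00545) and p18 (-1.48, SE 0.12, adjusted p 0.00402), and Dnajb9 was lower at p28 (-0.996, SE 0.18, adjusted p 0.00971). The isomerase P4hb was higher at p28 on 2 clones (1.14, SE 0.16, adjusted p 0.00337; and 1.30, SE 0.20, adjusted p 0.00509). The collagen prolyl hydroxylase subunit P4ha2, which pairs with the P4hb protein, was higher at p23 (1.10, SE 0.16, adjusted p 0.0074) and p28 (0.79, SE 0.13, adjusted p 0.00729). At p28 the median of this list was 0.25. Among the genes that did not pass, Ppib (2.43, above background on 31 of 35 arrays) and Dnajb11 (-0.59) had the largest difference from p2 averaged over p14 to p28, termed the late average.

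Of 23 sensors and factors of the unfolded protein response, 15 were measured and none passed at p14 (median -0.11). Bag3, a cytosolic co-chaperone, was lower at p23 (-1.29, SE 0.16, adjusted p 0.00359), and the asparagine synthetase gene Asns, an Atf4 target, was higher at p28 (1.57, SE 0.25, adjusted p 0.00611). Among 21 of 28 genes of ER-associated degradation, Fbxo6 alone passed, lower at p5 (-1.97, SE 0.23, adjusted p 0.00706), and among 27 of 31 genes of the translocon and N-glycosylation Srprb alone, a subunit of the signal recognition particle receptor, higher at p28 (1.67, SE 0.22, adjusted p 0.00283). The medians of these lists at p14 were -0.13 and 0.01. The largest late averages among genes that did not pass were those of Creb3l2 (3.51, above background on 23 of 35 arrays) and Creb3 (-0.58), of Vcp (-0.85) and Nploc4 (-0.41), and of Sec61g (0.58) and Srp68 (0.56).

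Beside Itpr1, 19 of 36 genes of ER calcium handling were measured, with a median of 0.07 at p14. Sdf4, a calcium-binding protein of the secretory pathway, was lower on 1 of its 3 clones at p14 (-1.16, SE 0.15, adjusted p 0.00478) and p28 (-1.23, SE 0.14, adjusted p 0.00149). Calm2, a calmodulin gene, was higher at p28 (1.14, SE 0.16, adjusted p 0.00385). Rcn3 (0.86) and Nucb1 (-0.80) had the largest late averages among genes that did not pass. Chaperones outside the ER, cytosolic but for the mitochondrial Hspa9 and Hspd1, were taken for contrast. Of the 24 measured, 7 passed at least once, on 10 of 56 clones, beside 5.41% of all clones with a symbol. Lower were Dnaja2 at p14 (-1.50, SE 0.19, adjusted p 0.00377), p23 and p28, Hspa8 at p23 (-1.76, SE 0.23, adjusted p 0.00498) and p28, Hsp90aa1 at p23, p25 and p28, Dnaja1 at p28 and Cryab at p5. Hspb1 was higher at p10 (1.22, SE 0.12, adjusted p 0.00337) and Tcp1 at p14 (0.99, SE 0.15, adjusted p 0.0085). The median of this list was -0.05 at p14 and -0.17 at p28. Hsph1 (-0.35) and Dnajc7 (-0.43) had the largest late averages among those that did not pass.

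The label of the cells was checked against marker genes. Of 20 markers of ovarian surface epithelium and mesothelium, 15 were measured, and their mean log2 ratio to the newborn was 1.42 at p2, 1.20 at p14 and 1.06 at p18, against 0.71 for p23 and 1.02 for p28. Wt1 read 5.03 at p2, 3.94 at p14 and 1.93 at p23, and Krt18 read 0.70, 1.66 and -0.03 on clone H3007G06. Nr2f2 of this list lay below the reference at every passage (-2.05 at p2), as did Cdh1 on clone H3050H02 (-0.80 at p2). The 4 granulosa markers measured had a mean of 1.19 at p2, against 0.58 for p14 and 0.35 for p28. At p2 this mean rested on Amhr2 (2.98 and 4.10 by clone) and Inha (1.12), while Foxl2 and Cyp11a1 clones ran from -0.17 to 0.13. Markers of fibroblasts, macrophages, endothelium and blood lay below the reference at every passage, on means of -0.62, -0.70, -0.59 and -2.09 at the most. Some genes of these lists went the other way. Among them, Tcf21 of the fibroblast list read 1.13 to 3.67, Dcn read up to 1.41 and lay above the reference from p2 to p14, and endothelial Cd34 reached 0.40 at p18. The part of these shifts in the ER results was not tested.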

How the data were processed

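RNA of MOSE cells at 9 passages was measured on 35 dual-color cDNA arrays against a newborn mouse reference. The authors extracted the spots with GenePix and deposited, for each array, the mean intensity and the local background of both channels with no normalization. The authors also deposited a table of log2 ratios of MOSE to reference, made with background correction, print-tip loess and scaling of slides in the DNMAD tool. That table was used as an alternative, and 13 of the 14 member clones were matched in it.

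Values were computed from the intensities in R 4.3.3 with limma 3.58.1. Background was subtracted, signals left below 0.5 were set to 0.5, each of the 32 print-tip blocks had its own loess curve (empty spots at weight 0), and the 35 arrays were scaled. Reverse arrays were turned, and a passage mean is the mean of its direct and reverse means. Following the study's methods, each passage was tested against p2 with limma, using the arrays of those passages only (with a dye term at p7, where the orientations are unequal) and Benjamini-Hochberg adjustment over 15254 clones, at a threshold of 0.01. Neighboring passages and p28 against p14 were tested likewise. The slope and the late-to-early difference were tested on 9 passage means at 0.05. The scripts were tested on simulated data first. The number of arrays limits the precision, and the MOSE median signal per array ran from 872 to 7419.

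Symbols were brought to current names through RefSeq genes (GRCm38.p6) in Python 3.11.15, and 10098 clones carry one. Named genes are every member clone and, in each list of related genes, those past the test against p2 and the 2 others with the largest late average. The 8 genes most like the members were also named. The members and lists were chosen with earlier results of these data known. The labels d1, d2, r1 and r2 mark dye orientation and do not pair samples. Alternatives covered background, loess, scaling, dim and marked spots, the deposited table, the MOSE channel alone, other fits, array series and leaving out each array or passage.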

Additional observations from a re-analysis of the deposited data

Results flagged for a closer look

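In 10 of 112 groups of 4 arrays, 1 array of a member clone lay far from the other 3, by a gap that chance alone gives in about 1 of 20 groups. For Hspa5 H3032A08, p10 d2 read 0.94 with the others at 0.59 to 0.65. For Hsp90b1 H3026G06, p14 d2 read 0.24 with the others at 0.47 to 0.49, and p18 d1 read 0.35 with the others at -0.21 to -0.14. Hsp90b1 H3026G05 read 1.20 on p5 r1, beside 0.75 to 0.79. Pdia4 read -0.80 on p14 r2, beside -0.24 to -0.14. These arrays stayed on the same side of the p2 arrays as the others of their passage, apart from p5 r1 of H3026G05, at which passage every array overlapped p2.

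Canx H3081D12 read 8.46 on p2 r2, where its spot was not above background and was marked by the scanner program, beside -0.25 to 0.00 on the other p2 arrays. Canx H3012C02 read 0.35 on p2 r2, beside 0.76 to 0.83. Itpr1 read 1.84 on p5 r1 beside 1.57 to 1.59, 0.40 on p23 r2 beside 0.70 to 0.75, and -0.45 on p28 d1 beside 0.29 to 0.38. The Itpr1 difference at p28 passed with that array left out.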

How the results depend on the processing

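Over the 8 comparisons with p2, member clones passed as lower 11 times. This became 22 with no background subtraction, 18 without scaling, 24 with only clones above background on every array, 24 with marked spots left out, 50 with all 35 arrays in 1 fit and 29 with a dye term in every comparison. It became 3 with global loess, 2 with scaling within each passage, 1 with the MOSE channel alone and 6 with 1 value per gene. Within array series 5 calls were made in 4 comparisons, of which only p18 (4 calls) was against p2 and the others against p7, and with the series as a block 8 were made, all at p18. Canx H3081D12 passed as higher at p5 with normexp, with no background subtraction and in the MOSE channel alone. Its spots were above background on 4 of 4 arrays at p5 but on 1 of 4 at p2. The share of all clones that passed moved with the setting too. At p14 the 3 calls (0.623% of all clones as lower) became 5, 6, 6, 6, 9 and 8 in the first group of settings. There 1.08%, 0.76%, 1%, 0.987%, 1.76% and 1.68% of all clones tested passed as lower. Member calls at p14 became 1 with global loess (0.393%) and 1 with scaling within each passage (0.354%). They became 0 with the MOSE channel alone (0.111%) or with the series as a block (0.341%). With the array label as a replicate block the counts were 2 over all comparisons and 0 at p14 (0.0197% of all clones as lower). The labels are only numbers within an orientation, since arrays of the same label at other passages correlated at a median of 0.10, as did those of the same orientation. Leaving out each array gave 1 to 11 calls over all comparisons (7 without p2 d1, 2 without p2 r1, 1 without p2 r2) and 0 to 4 at p14 (1 without p2 r1, p14 d2 or p14 r1, and 0 without p2 r2, p14 d1 or p14 r2). Over all clones the p14 calls in either direction ran from 48 to 116 in these fits, against 205 with every array.

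The 3 slopes past the test (1.34% of all clones below 0) became 1 with normexp (2.07%), global loess (0.983%), no scaling (0.144%) or scaling within each passage (0.197%). They became 0 with the authors' table (0.447%), and ran from 0 to 3 when each passage was left out (0 without p2 or p28). The 3 late-to-early calls (2.4% of all clones as lower) became 1 without scaling (0.144%), 0 with scaling within each passage (0.0131%) and 1 with the authors' table (0.434%). They ran from 1 to 3 when each passage was left out (1 without p7). Neighboring passages gave 1 call in place of 0 with no background subtraction, with only clones above background or with marked spots left out. The 4 calls at p18 within its series became 0 without the dye term. Among values with a call before or after the change, signs turned for Canx H3081D12 at p5 (-0.89), to 1.21 with normexp, 1.11 with no background subtraction and 10.6 in the MOSE channel alone. They also turned for the cytosolic Dnaja2 J0915A06 at p14 (-1.02), to 0.12 with the series as a block. The cause was not tested in any of these. Of 3494 single values recomputed, 2723 kept direction and call, or stayed within the spread between arrays, 475 lost a call, 123 gained one, 169 moved and these 4 turned. Values not called in the main processing changed sign 109 times, those of Canx H3081D12 among them. The dye term, the p18 fit without it, the count without dim clones, and the alternatives for neighboring passages and p28 against p14 were chosen after seeing the data. Dim signal limits Hspa5 H3144C11 at p5 and Canx H3081D12 at passages other than p5. With the series as a block p5 and p28 could not be fitted.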
